A study of Homo sapiens with 6 samples.

Results

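The 27 genes described here code for enzymes that build cholesterol, for proteins that hold or release the transcription factor of that pathway, and for 1 sterol carrier. They were taken by name from the 33117 gene symbols of the deposited table: HMGCS1, MVK, PMVK, MVD, IDI1, GGPS1, FDPS, FDFT1, SQLE, LSS, CYP51A1, TM7SF2, LBR, MSMO1, NSDHL, HSD17B7, EBP, SC5D, DHCR7, INSIG1, INSIG2, SREBF2, SCAP, MBTPS1, MBTPS2, STARD4 and ACAT2. All 27 had a row and all passed the filter on low values. None of them is a receptor that takes up lipoprotein, so the results concern synthesis, its control and transport inside the cell.

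RNA was sequenced from WPMY-1, an immortalised line of stromal cells from a normal human prostate, grown in DMEM with serum. The 3 shCtrl libraries came from cells with the pLKO1 vector and the 3 shCAVIN1 libraries from cells with a hairpin against CAVIN1, which codes for a coat protein of the cholesterol-rich membrane pits called caveolae. The constructs were delivered by lentivirus packaged in HEK293T cells, a human embryonic kidney line, and puromycin was used to obtain stable knockdown clones. The hairpin was a single one, no hairpin is stated for its control, and the labels do not say whether the 3 libraries of a group came from separate transductions or clones. The p-values therefore reflect library-to-library spread, which may not include the spread between transductions or clones. The hairpin target, 5′ to 3′, is shown because it defines the knockdown group.
Hairpin target: gtggaggttgaggaggttatt

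Cholesterol is made from acetyl-CoA. Acetyl-CoA units are joined and reduced to mevalonate, mevalonate is turned into isoprenoid diphosphates, these are joined to squalene, and squalene is closed into a ring and trimmed to cholesterol. The genes of this route are switched on by the factor that SREBF2 codes for, which sits in the endoplasmic reticulum bound to SCAP. When sterol is plentiful the INSIG proteins hold SCAP there, and when it is scarce SCAP carries the factor to the Golgi, where the proteases MBTPS1 and MBTPS2 cut it free to enter the nucleus.

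The level of CAVIN1 was 329.6, 346.9 and 330.3 FPKM (fragments mapped to a gene, scaled to transcript length and library size) in shCtrl and 133.9, 138.8 and 150.2 FPKM in shCAVIN1, or 42.0% of control, under its older symbol PTRF. Between 19649 and 20435 genes were above 0 in a library, and FPKM sums lay between 758837 and 1043843. Read depth is unknown, so counting intervals are left out. Of 10 stromal markers all were detected in both groups, with VIM at 280 ± 28.1 and 296 ± 13.8 FPKM. By limma 6 of the 10 fell, COL1A2 most (85.5 ± 11.9 to 9.78 ± 0.731 FPKM), with FN1, COL3A1, THY1, LUM and COL6A1, and 1 rose (median log2 -0.62). Of all tested genes 28.2% were called lower and 27.3% higher. Summed over the markers, the level was nonetheless higher in shCAVIN1 (2032 to 2077 FPKM against 1231 to 1355 FPKM), since S100A6 alone went from 430.2 to 1512 FPKM. Of 10 epithelial markers 7 stayed below 1 FPKM in every library, with KLK3 and TMPRSS2 at 0, and the sum (399.6 to 433.6 and 243.9 to 259.0 FPKM) was mostly KRT18. Endothelial markers summed to at most 0.885 and 1.34 FPKM, leukocyte markers to 8.39 and 10.1 FPKM with CD3E at 0, hepatocyte markers to 0.106 and 0.0830 FPKM with TTR and CYP7A1 at 0, and neural markers, mostly TUBB3, to 34.9 and 32.3 FPKM in shCtrl and shCAVIN1. Of the 3 epithelial markers tested by limma 2 rose, and KRT18 fell from 385 to 219 FPKM. The 1 endothelial marker tested rose, of 2 leukocyte markers 1 rose and 1 fell, and of 2 neural ones 1 rose. The part of these markers in the results below was not tested.

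Promoter sequence is shown for 5 members as examples: HMGCS1 and MSMO1, which fell, FDPS and INSIG1, which rose, and SREBF2, the gene of the pathway's own factor. These are not the 5 members with the largest changes. All 5 carry marked motifs, which not every member does. The sequences are from a set of RefSeq promoter windows (GRCh38.p14) that held 24 of the 27 genes, without ACAT2, FDFT1 and SQLE. They run 5′ to 3′ on the gene's strand from 250 bases before the start site. Each ends before the first base that GENCODE 29 annotates as transcribed. Capitals mark 5 motifs searched on both strands: TCACNCCAC (sterol regulatory element, SRE), TCACNCGA (a looser SRE-like form), CCAAT (box of the factor NF-Y), GGGCGG (GC box of the Sp factors) and the E-box CACGTG. Neighbouring GC boxes can overlap, as in INSIG1.
HMGCS1: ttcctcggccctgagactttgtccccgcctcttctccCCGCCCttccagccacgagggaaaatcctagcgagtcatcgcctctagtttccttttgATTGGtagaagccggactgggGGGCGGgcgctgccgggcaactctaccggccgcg
FDPS: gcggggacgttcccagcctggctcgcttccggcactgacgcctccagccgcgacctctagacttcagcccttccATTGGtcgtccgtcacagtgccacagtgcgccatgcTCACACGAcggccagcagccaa
MSMO1: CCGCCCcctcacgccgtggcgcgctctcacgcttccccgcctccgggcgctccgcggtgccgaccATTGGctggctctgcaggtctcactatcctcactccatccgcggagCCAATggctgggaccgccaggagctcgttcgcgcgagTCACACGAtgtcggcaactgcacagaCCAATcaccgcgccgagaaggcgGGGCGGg
INSIG1: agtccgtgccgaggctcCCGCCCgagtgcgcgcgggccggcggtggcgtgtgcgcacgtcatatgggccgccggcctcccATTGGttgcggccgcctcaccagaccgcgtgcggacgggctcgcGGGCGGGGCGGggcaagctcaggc
SREBF2: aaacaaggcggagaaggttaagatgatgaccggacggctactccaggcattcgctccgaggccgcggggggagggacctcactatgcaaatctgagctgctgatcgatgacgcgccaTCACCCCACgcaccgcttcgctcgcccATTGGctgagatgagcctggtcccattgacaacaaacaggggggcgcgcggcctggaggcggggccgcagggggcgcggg

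These stretches lie at chr5:43313513-43313662 on the minus strand (HMGCS1) and, on the plus strand, at chr1:155308616-155308747 (FDPS), chr4:165327419-165327622 (MSMO1), chr7:155297628-155297775 (INSIG1) and chr22:41832855-41833078 (SREBF2). Over the full 250 bases, the SRE was in 1 of the 24 members, SREBF2, where it begins 133 bases before the start, and in 0.883% of all 35116 promoter windows. The SRE-like form was in FDPS, MSMO1 and HSD17B7, 12.5% of members against 0.926% of windows and 1.29% of the 9616 promoters of tested genes, and reads TCACACGA in both FDPS and MSMO1. CCAAT was in 15 members (62.5%), against 32.0% of windows and 35.1% of promoters of tested genes. GGGCGG was in 18 (75.0%), against 42.6% of windows but 67.9% of promoters of tested genes, a share near that of the members. CACGTG was in SC5D, INSIG1 and SCAP (12.5%), against 6.34% and 8.92%. CCAAT was found in 8 of the 13 lower members with a window and in 4 of the 5 higher ones, and GGGCGG in 10 of 13 and 5 of 5. A match describes letters in these windows, and no match says only that the letters are not there.

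Most of the 27 genes were lower in shCAVIN1, in steps of modest size, and a minority at scattered points of the route were higher. By limma on log2(FPKM + 0.5), with Benjamini-Hochberg adjustment over 13941 tested genes and a threshold of 0.05, 15 members fell, 5 rose and 7 did not pass. The called share was 74.1% of members, where 55.5% of all tested genes were called. Lower calls made up 55.6% of members against 28.2% of all tested genes, and higher calls 18.5% against 27.3%. The median log2 fold change was -0.25 over the members and -0.02 over all tested genes. In 22 members (81.5%) every library of one group lay beyond those of the other, as in 64.6% of all tested genes. For each of these 22 the two-sided exact permutation p was 0.1, the lowest value possible with 3 against 3 libraries. In bulk RNA, fewer cells expressing a gene and less RNA per cell cannot be told apart.

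Changes of larger size were about as frequent as among all genes. A set of 5 members, HMGCS1, PMVK, SQLE, EBP and INSIG2, were called with a change of at least 1.5-fold on the log2(FPKM + 0.5) scale, or 18.5% against 18.0% of all tested genes. When every library was rescaled to the same total (TPM), 3 members were called lower (HMGCS1, SQLE and INSIG2) and 3 higher (PMVK, FDPS and EBP). The larger number of lower than higher members was thus not kept under TPM. Under TPM the tested-gene median went from -0.02 to 0.09. The called share of all genes fell to 24.5%, and 64.4% of those calls were higher. TPM divides by sums to which the small nuclear RNA RN7SK contributed 0 FPKM in shCtrl replicate 2. In every other library RN7SK contributed between 106035 and 151555 FPKM. Rescaling on protein-coding genes alone gave 15 lower and 6 higher members.

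**Figure D1:**
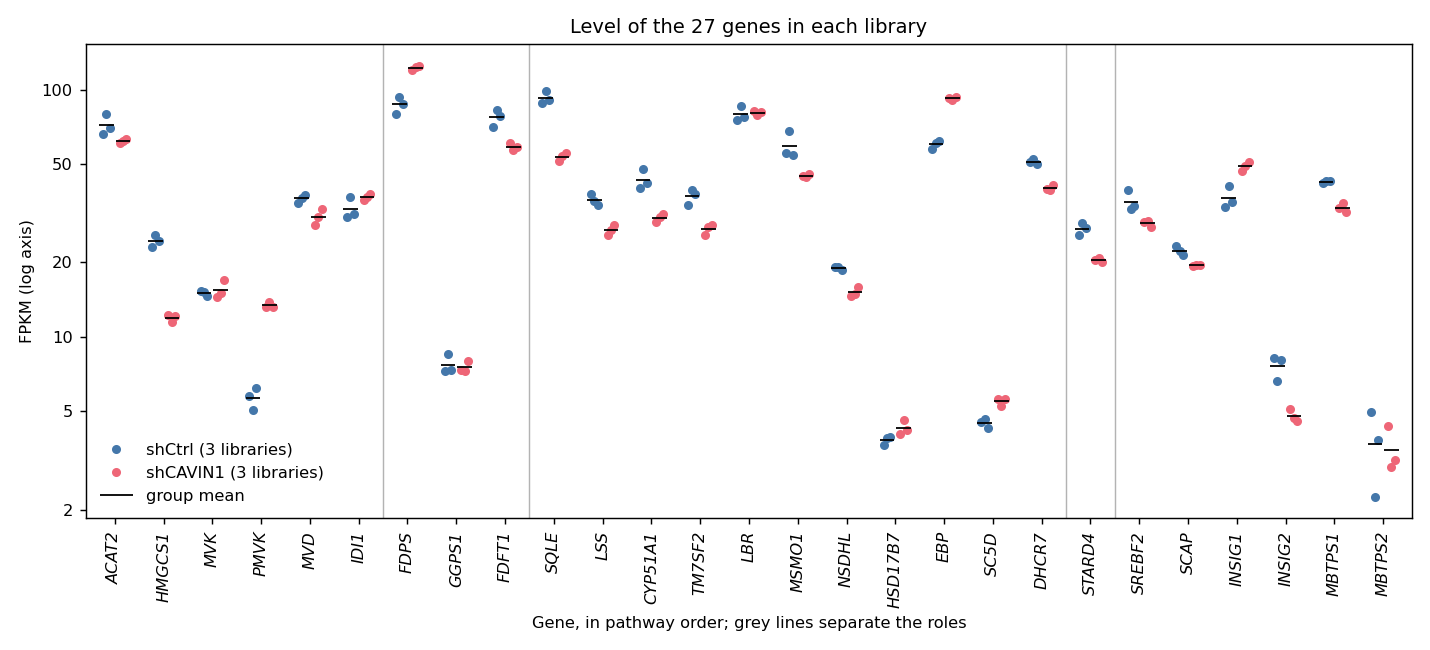
Level of the 27 genes in FPKM (vertical log axis) in pathway order, with 1 point per library, shCtrl in blue and shCAVIN1 in red, and a line at each group mean. HMGCS1, SQLE and INSIG2 sit well below their controls and PMVK, FDPS and EBP above, while MBTPS2 is spread widely in both groups.

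The first segment of the route runs from acetyl-CoA to isopentenyl diphosphate and holds both the largest fall and the largest rise of the 27 genes. HMGCS1, the synthase that makes HMG-CoA, stood at 23.1, 25.8 and 24.5 FPKM in shCtrl and at 12.2, 11.5 and 12.1 FPKM in shCAVIN1. It fell to 48.9% of control (log2 -1.002, SE 0.0538, limma adjusted p = 4.76e-05), and every shCAVIN1 library was below every shCtrl library. PMVK, the kinase that adds the second phosphate to mevalonate, stood at 5.75, 5.05 and 6.19 FPKM in shCtrl and at 13.2, 13.9 and 13.2 FPKM in shCAVIN1. It rose 2.37-fold (log2 1.18, SE 0.0752, limma adjusted p = 8.01e-05), so that the order of the pair turned: HMGCS1 was 4.01, 5.11 and 3.95 times PMVK in shCtrl and 0.925, 0.828 and 0.917 times PMVK in shCAVIN1.

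The other 4 members of that segment differed less between groups. MVD, the decarboxylase of the last step before isopentenyl diphosphate, fell from 36.3 ± 1.36 to 30.6 ± 2.30 FPKM (log2 -0.25, adjusted p = 0.0177). Leaving out shCtrl replicate 3 ended that call (adjusted p = 0.0644), and so did leaving out shCAVIN1 replicate 2 (0.0594). ACAT2, the cytosolic thiolase that joins acetyl-CoA units, was at 65.9, 79.6 and 70.0 FPKM in shCtrl and at 60.8, 61.7 and 63.0 FPKM in shCAVIN1, with no overlap, but it missed the threshold (log2 -0.21, adjusted p = 0.0503). It passed in 7 of 17 alternative settings, between 0.0024 and 0.0495, and reached 0.773 after rescaling to TPM. MVK, mevalonate kinase, was at 15.1 ± 0.364 and 15.5 ± 1.28 FPKM with overlapping libraries (adjusted p = 0.641). IDI1, the isomerase of isopentenyl diphosphate, was at 32.8 ± 3.35 and 36.9 ± 0.958 FPKM (adjusted p = 0.101), and passed as higher without shCtrl replicate 2 (log2 0.25, adjusted p = 0.00324) and with protein-coding scaling (log2 0.15, adjusted p = 0.0247).

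FDPS, GGPS1 and FDFT1 stand at the branch point, where farnesyl diphosphate is made, lengthened for protein prenylation or committed to squalene, and each behaved differently. FDPS, the farnesyl diphosphate synthase, was at 79.8, 93.7 and 87.7 FPKM in shCtrl and at 120.0, 123.2 and 125.1 FPKM in shCAVIN1. It rose 1.41-fold (log2 0.50, adjusted p = 0.0012) with no overlap, and was the most abundant of the 27 genes in shCAVIN1. FDFT1, squalene synthase and the first enzyme committed to sterol, was at 70.9, 82.5 and 78.5 FPKM in shCtrl and at 60.9, 56.7 and 58.7 FPKM in shCAVIN1. It fell to 76.0% of control (log2 -0.39, adjusted p = 0.00322), also with no overlap. GGPS1, which makes geranylgeranyl diphosphate, was at 7.73 ± 0.724 and 7.52 ± 0.400 FPKM (log2 -0.03, SE 0.0760, adjusted p = 0.723), with overlapping libraries and a sign that turned positive in 3 alternatives.

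From squalene to cholesterol, 7 of 11 members fell, 2 rose and 2 did not pass, with a median log2 fold change of -0.35. Lower calls were 63.6% and higher calls 18.2%, beside 28.2% and 27.3% of all tested genes. SQLE, the epoxidase that adds oxygen to squalene, stood at 88.0, 98.9 and 90.8 FPKM in shCtrl, where it was the most abundant member, and at 51.2, 54.0 and 55.2 FPKM in shCAVIN1. It fell to 57.8% of control (log2 -0.79, SE 0.0581, adjusted p = 0.000132), and ranked sixth by level among the 27 genes in shCAVIN1. LSS, which closes the ring to lanosterol, fell from 35.9 ± 1.91 to 27.1 ± 1.22 FPKM, and CYP51A1, the lanosterol demethylase, from 43.2 ± 3.90 to 30.4 ± 1.16 FPKM. Their log2 fold changes were -0.40 and -0.50, with adjusted p of 0.00151 and 0.0017, and neither overlapped between groups.

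The next step, reduction of the sterol after demethylation, can be done by TM7SF2 or by LBR, which is also the receptor of the nuclear lamina. TM7SF2 was at 34.2, 39.3 and 37.9 FPKM in shCtrl and at 25.9, 27.9 and 28.5 FPKM in shCAVIN1, and fell to 73.8% of control (log2 -0.43, adjusted p = 0.0022). LBR was at 75.4, 86.0 and 77.6 FPKM in shCtrl and at 81.6, 79.0 and 81.2 FPKM in shCAVIN1, with overlapping libraries (log2 0.02, SE 0.0582, adjusted p = 0.79). The ratio of TM7SF2 to LBR was 0.454, 0.458 and 0.488 in shCtrl and 0.317, 0.353 and 0.350 in shCAVIN1, with no overlap.

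MSMO1, the oxidase that starts removal of the paired methyl groups, fell from 59.2 ± 7.78 to 44.8 ± 0.609 FPKM (log2 -0.39, adjusted p = 0.0118). Its control spread came from shCtrl replicate 2, at 68.2 FPKM beside 55.2 and 54.2 FPKM in the other control libraries. NSDHL, the dehydrogenase that follows, fell from 19.0 ± 0.241 to 15.2 ± 0.640 FPKM (log2 -0.32, adjusted p = 0.00144). HSD17B7, the ketoreductase of the same complex, was at 3.65, 3.88 and 3.93 FPKM in shCtrl and at 4.03, 4.60 and 4.19 FPKM in shCAVIN1. It did not overlap between groups but missed the threshold (log2 0.14, adjusted p = 0.101).

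The last steps split. EBP, the isomerase that moves the ring's double bond, stood at 57.7, 60.6 and 62.1 FPKM in shCtrl and at 92.7, 91.0 and 93.4 FPKM in shCAVIN1, and rose 1.54-fold (log2 0.62, SE 0.0428, adjusted p = 0.000108). SC5D, the desaturase after it, rose at a low level, from 4.53, 4.65 and 4.29 FPKM to 5.61, 5.24 and 5.61 FPKM (log2 0.26, adjusted p = 0.00676). DHCR7, which reduces dehydrocholesterol to cholesterol, was at 51.2, 52.2 and 50.03 FPKM in shCtrl and at 39.6, 39.2 and 41.2 FPKM in shCAVIN1. It fell to 78.2% of control (log2 -0.35, adjusted p = 0.000635), so that neighbouring enzymes of the route moved in opposite directions with no overlap in any of the 3. STARD4, which carries sterol between membranes, fell from 27.4 ± 1.57 to 20.5 ± 0.441 FPKM (log2 -0.41, adjusted p = 0.000999).

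**Figure D2:**
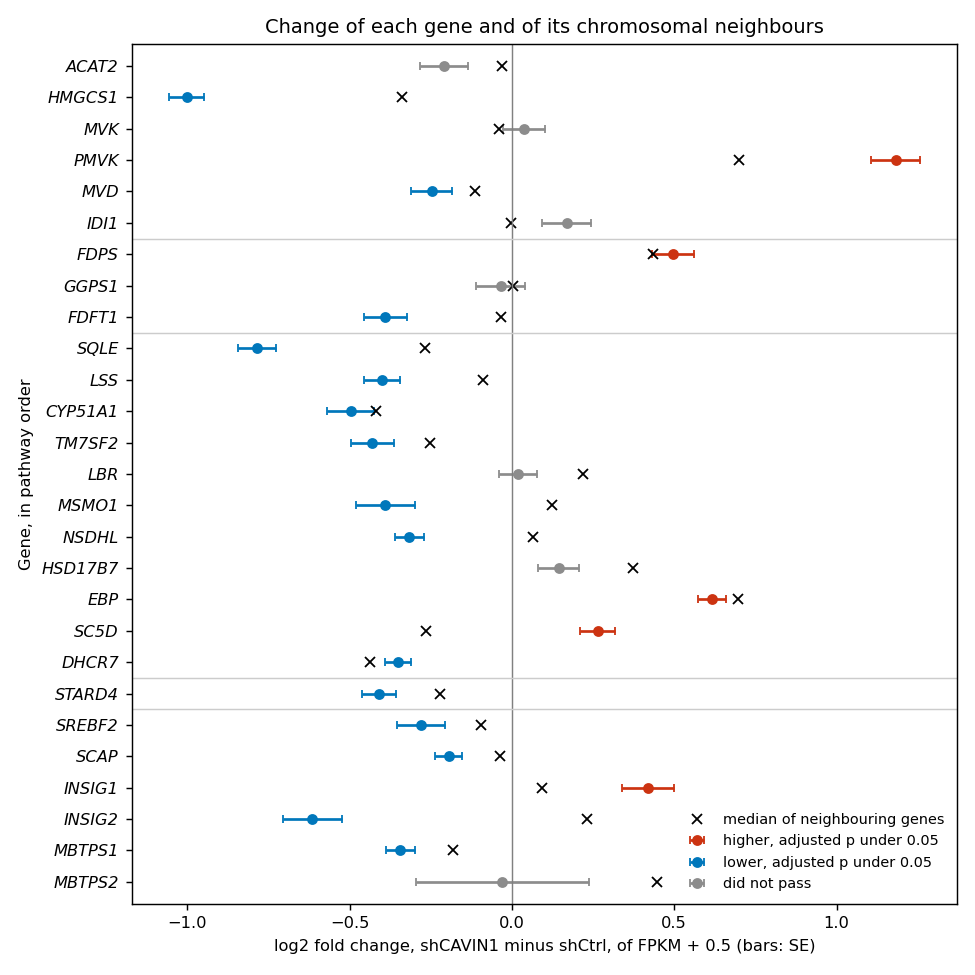
Log2 fold change of each gene (horizontal axis, shCAVIN1 minus shCtrl on the log2(FPKM + 0.5) scale, bars showing the SE) in pathway order, coloured by the limma call, with a cross at the median change of up to 10 tested neighbours on each side. The 15 lower genes are spread over the whole route, and the crosses of PMVK, FDPS and EBP lie far to the right with the genes themselves.

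The SREBP control genes fell in 4 of 6 cases, rose in 1 and did not pass in 1. These calls were 66.7% lower and 16.7% higher, beside 28.2% and 27.3% of all tested genes. SREBF2, the gene of the factor itself, was at 39.2, 32.8 and 33.8 FPKM in shCtrl and at 29.2, 29.5 and 27.8 FPKM in shCAVIN1. It fell to 81.8% of control (log2 -0.28, SE 0.0739, adjusted p = 0.0186), but the call was lost without shCAVIN1 replicate 3 (0.0681) and with protein-coding scaling (0.0518). SCAP, its escort, fell from 22.3 ± 0.846 to 19.4 ± 0.1003 FPKM (log2 -0.19, adjusted p = 0.00822), the smallest called change of the 27. MBTPS1, the protease that makes the first cut, fell from 42.4 ± 0.438 to 33.4 ± 1.46 FPKM (log2 -0.34, adjusted p = 0.00104). MBTPS2, which makes the next cut, was at 4.98, 2.26 and 3.84 FPKM in shCtrl and at 4.34, 2.96 and 3.18 FPKM in shCAVIN1, a spread too wide to show a direction (log2 -0.03, SE 0.267, adjusted p = 0.933).

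The INSIG genes went opposite ways. INSIG1, itself a target of the pathway's factor, stood at 33.5, 40.8 and 35.2 FPKM in shCtrl and at 46.8, 48.9 and 50.9 FPKM in shCAVIN1. It rose 1.34-fold (log2 0.42, SE 0.0800, adjusted p = 0.00524) with no overlap. INSIG2 stood at 8.22, 6.64 and 8.07 FPKM in shCtrl and at 5.13, 4.70 and 4.58 FPKM in shCAVIN1, and fell to 62.8% of control (log2 -0.61, SE 0.0912, adjusted p = 0.00189). INSIG1 was thus 4.08, 6.14 and 4.36 times INSIG2 in shCtrl and 9.13, 10.4 and 11.1 times INSIG2 in shCAVIN1.

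A ratio of genes within a library does not depend on how libraries are scaled, and 8 such ratios were compared. In 7 of them the groups did not overlap. Each of the 7 had an exact two-sided permutation p of 0.1, the smallest possible for 3 libraries a group, and 0.114 after adjustment over the 8. No background share is given for ratios, and the groups also did not overlap in 64.6% of single tested genes. HMGCS1 to PMVK sets the largest fall of a member against the largest rise, so its separation follows from the single-gene results. HMGCS1 to PMVK changed most (log2 difference -2.28), then SREBF2 to SREBF1, the related factor of fatty acid synthesis (2.82, 2.75 and 2.83 in shCtrl, 1.15, 1.21 and 1.11 in shCAVIN1), and INSIG1 to INSIG2 (1.09). The differences were -0.82 for HMGCS1 to ACAT2, -0.62 for SCAP to INSIG1, 0.54 for FDPS to GGPS1 and -0.46 for TM7SF2 to LBR. MBTPS1 to MBTPS2 overlapped (exact permutation p = 0.5).

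**Figure D3:**
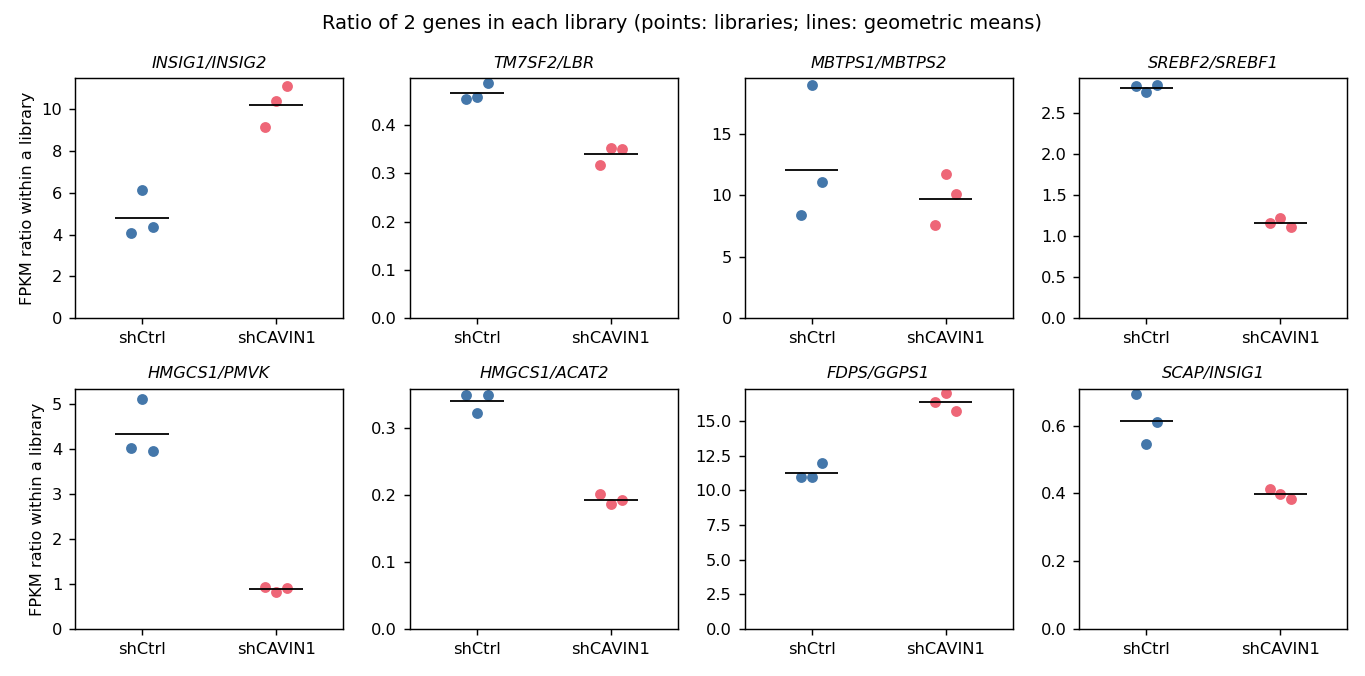
FPKM ratio of each gene pair within a library (vertical axes from 0), with 1 point per library and lines at the geometric means. The groups are apart in 7 panels, among them INSIG1/INSIG2 (4.08 to 6.14 against 9.13 to 11.1), and overlap for MBTPS1/MBTPS2.

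Neighbouring genes on the chromosome often had fold changes of the same sign as a member (16 of the 20 called members shared the sign of their neighbours’ median). For each gene, the median log2 fold change was taken over the 10 nearest tested genes on each side (fewer at chromosome ends). Over the 27 members the change of a gene and that of its neighbours had a Pearson r of 0.724 and a Spearman rho of 0.623, a description over genes of the same libraries. The same values over all tested genes are not given here, so the pattern cannot be taken as particular to the members. The minus-strand gene PMVK spans 154924734 to 154936991 of chromosome 1 (GRCh38), where 19 of 20 neighbours were higher with a median of 0.70. FDPS lies 0.372 Mb away at 155308748 to 155320666, with 16 of 20 neighbours higher and a median of 0.44. EBP, on the X chromosome at 48521158 to 48528716, had 19 of 20 higher and a median of 0.70. On the lower side, DHCR7 on chromosome 11 (71428193 to 71452868) had 2 of 20 neighbours higher and a median of -0.44, and CYP51A1 on chromosome 7 (92112151 to 92134803) 3 of 20 and -0.42.

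With the neighbours' median subtracted, 18 of the 20 called members kept their sign, and the change left was small for several. FDPS stood at 0.06 above its neighbours, CYP51A1 at -0.08, and EBP (-0.08) and DHCR7 (0.09) turned sign. HMGCS1 stayed at -0.66, SQLE at -0.52, PMVK at 0.48 and INSIG1 at 0.33. Others stood further from their neighbours than from 0: INSIG2 at -0.85, SC5D at 0.53, MSMO1 at -0.51 and NSDHL at -0.38. The part of the chromosomal surroundings in these changes was not tested.

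Some members share sequence with other annotated genes, and whether the authors counted by strand is not given in the sources used here. ACAT2 overlaps TCP1 (mean 125 FPKM) and SOD2 (42.1 FPKM) on the other strand, FDPS overlaps RUSC1-AS1 (15.4 FPKM, log2 0.61), and STARD4 overlaps STARD4-AS1, which fell (log2 -2.20, limma adjusted p = 2.57e-05) at a mean of 2.80 FPKM. On the same strand, GGPS1 shares 15963 bases with TBCE (6.78 FPKM, log2 -0.23), TM7SF2 16 bases with VPS51, and CYP51A1 most of its length with another gene model. FDPS has 8 annotated pseudogenes, CYP51A1 3 and HSD17B7 2, so their values are uncertain where fragments could be split between copies.

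Per transcript length, the members spanned a wide range of levels. The most abundant in shCtrl were SQLE (92.6 ± 5.64 FPKM), FDPS (87.1 ± 7.01 FPKM), LBR (79.6 ± 5.58 FPKM), FDFT1 (77.3 ± 5.90 FPKM) and ACAT2 (71.9 ± 7.06 FPKM), each overlapping the next in that order over the libraries. In shCAVIN1 the order at the top was FDPS (122.8 ± 2.58 FPKM), EBP (92.4 ± 1.22 FPKM), LBR (80.6 ± 1.39 FPKM) and ACAT2 (61.9 ± 1.11 FPKM), each apart from the next in every library. MBTPS2, HSD17B7 and SC5D were the least abundant in shCtrl, all under 5 FPKM. Within shCtrl, replicate 2 was the highest library for 17 of the 27 members, with a median log2 deviation from the group mean of 0.05 over members and 0.04 over tested genes. Summed over the 27 genes, the level lay between 977.2 and 1076 FPKM in shCtrl and between 927.2 and 956.4 FPKM in shCAVIN1.

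Among the 8 other tested genes of sterol synthesis reported here, 4 fell and 4 did not pass, with a median log2 fold change of -0.14 over these 8. ACAT1, the mitochondrial counterpart of ACAT2, fell from 41.0 ± 4.71 to 29.3 ± 0.775 FPKM, and CYB5R3, which feeds electrons to sterol oxidases and desaturases, from 39.3 ± 1.42 to 32.7 ± 1.26 FPKM. FAXDC2, a member of the fatty acid hydroxylase family, fell from 6.37 ± 0.624 to 4.85 ± 0.408 FPKM (log2 -0.36, limma adjusted p = 0.0152). Rescaling to TPM left 0 lower calls, and leaving out shCAVIN1 replicate 3 left 2. Beside the main counts of this and the following lists stand the shares of all tested genes, 27.3% higher and 28.2% lower. Counts under the alternatives have other shares beside them. Rescaling to TPM called 24.5% of all tested genes, and 64.4% of those were higher. Leaving out 1 library called between 44.6% and 60.7%, and protein-coding scaling 56.1%.

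In the side branches that use isoprenoids for protein prenylation, ubiquinone and dolichol, 7 of 13 genes rose and 2 fell, with a median of 0.14. ICMT, the methyltransferase of prenylated proteins, rose from 49.2 ± 3.50 to 79.9 ± 0.624 FPKM. RABGGTA, a subunit of the transferase that geranylgeranylates Rab proteins, rose 1.32-fold, and PDSS2, of ubiquinone side chain synthesis, 1.39-fold. Rescaling to TPM left 4 higher and 0 lower. The lower calls were 1 with quantile normalization, and 1 without shCtrl replicate 2 or 3 or without shCAVIN1 replicate 1 or 3.

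Of 19 further regulators around SREBP, 5 rose and 4 fell (median 0.02). SREBF1 rose from 12.6 ± 1.138 to 24.9 ± 0.497 FPKM and VCP, the ATPase that pulls ubiquitinated proteins from the endoplasmic reticulum, from 116.8 ± 1.74 to 155.4 ± 1.10 FPKM, while UBXN1, a VCP cofactor, fell from 101.7 ± 6.48 to 57.3 ± 2.58 FPKM. The number that rose was 9 of 19 without shCtrl replicate 2, 3 without shCtrl replicate 3 or shCAVIN1 replicate 2, and 8 with protein-coding scaling, and TPM left 1 higher and 1 lower. A further list held genes taken as possible targets of the factor, and whether they respond to it was not tested. Of its 13 tested genes, 4 rose and 3 fell (median 0.05). FABP5, a fatty acid carrier, rose 1.52-fold, and LPIN1, a phosphatidate phosphatase, 1.42-fold. STARD5, a sterol carrier related to STARD4, fell to 33.9% of control (6.88 ± 0.827 to 2.34 ± 0.357 FPKM). TPM left 1 lower call in that list.

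Of 15 genes of sterol transport and esterification, 3 rose and 7 fell (median -0.10). The oxysterol-binding proteins OSBP and OSBPL2 fell to 51.5% and 57.0% of control and TMEM41B, a lipid scramblase, to 74.2%. TPM left 1 higher and 2 lower calls. Of 6 tested genes of oxysterol synthesis and the LXR receptors, 2 rose and 0 fell by limma (median 0.13): RXRA, the partner of LXR, rose 1.51-fold, and CYP27A1, which makes an oxysterol, was low in both groups (0.734 ± 0.152 and 1.23 ± 0.222 FPKM, adjusted p = 0.0263). Without shCtrl replicate 1, shCAVIN1 replicate 2 or shCAVIN1 replicate 3, 1 of the 6 rose, and a filter at a mean FPKM of 2 also left 1. None of these 6 tested genes was lower at an unadjusted p under 0.05 either.

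**Figure D4:**
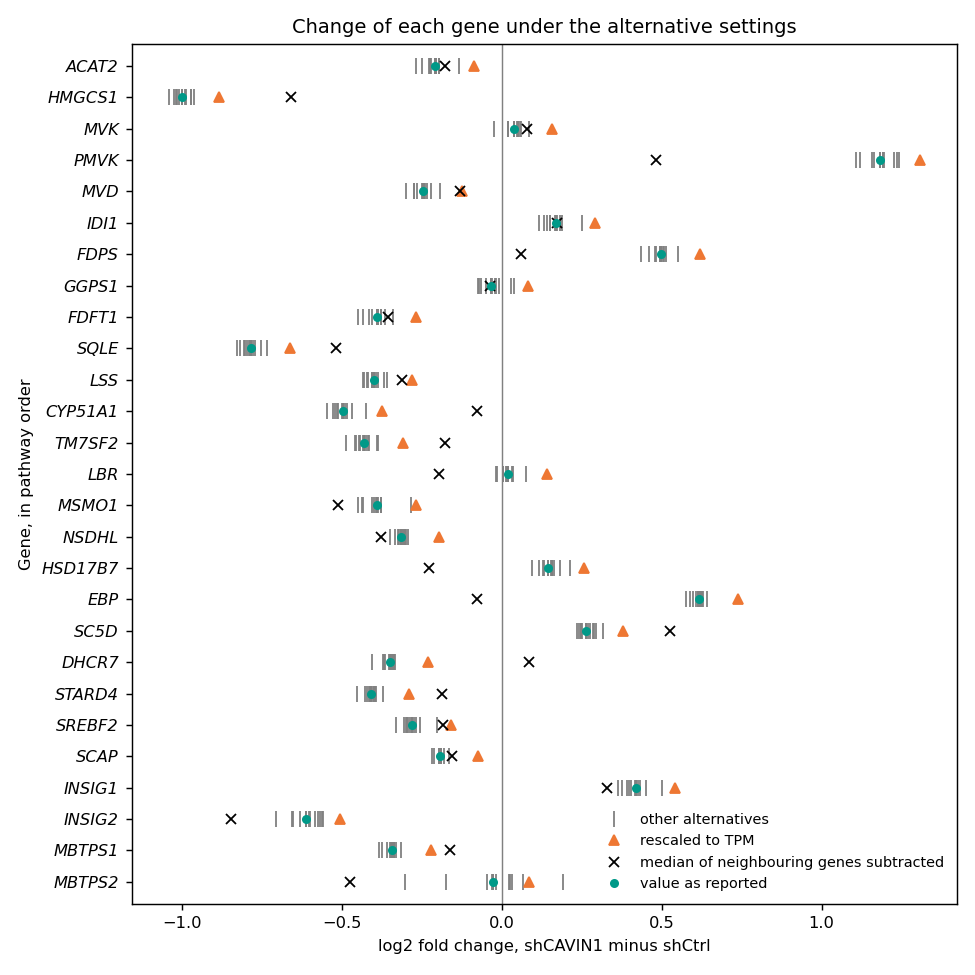
Log2 fold change of each gene (horizontal axis) as reported and under the alternative settings, in pathway order. The tested alternatives keep the 20 called genes on their side of 0, rescaling to TPM shifts every gene to the right, and subtracting the neighbours' median moves EBP and DHCR7 across 0.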

How the data were processed

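Total RNA of 6 WPMY-1 libraries was measured with an Illumina stranded kit, per the labels. The authors deposited 1 table of FPKM values, 1 column per library. The submitters' processing notes name GRCh38, CASAVA, bcl2fastq 2.17.1.14, TopHat2 (given as 2.2.5) and TopHat. No source used here names the quantifier, annotation, filters or strand use. FPKM values are not counts, so no count model was used. Genes with a mean FPKM of at least 0.5 (13941) were fitted by limma (version 3.58.1, R 4.3.3) after taking log2(FPKM + 0.5), with group as the only term and a variance trend, and adjusted by Benjamini-Hochberg over all of them. The fit was checked on simulated data with few changed genes and independent libraries. That differs from these data, where 55.5% of tested genes were called. Fold changes on that scale understate changes of low genes. Folds and percentages of control are ratios of mean FPKM, and errors are SD with n = 3 unless SE is stated. Positions are from GENCODE 29 and promoters from RefSeq. Members and lists were chosen with earlier results of these data known. Named list genes are the 3 with the lowest adjusted p among those called. Some genes of the pathway are not reported here, so counts over the list of other sterol synthesis genes cover only those that are.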

Additional observations from a re-analysis of the deposited data

How the results depend on the processing

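Over 17 tested alternatives (pseudocounts of 0.1 and 1, no filter or a mean FPKM of 2, 3 planned scalings, robust or untrended variances, the replicate block, each library left out, and protein-coding scaling, which was added after seeing the data), all 20 called members kept their sign. Rescaling to TPM gave 3 higher and 3 lower members against 5 and 15, and a median of -0.13 against -0.25. The other alternatives gave 5 or 6 higher and 14 to 16 lower. Leaving out 1 library gave 5 to 6 higher, 14 to 16 lower and a median of -0.29 to -0.20. The replicate block gave 5 higher and 15 lower, changed no call of a member and moved the calls over all genes from 7734 to 7167. Same-numbered libraries had deviations from their group means that correlated at 0.0936, 0.0714 and -0.0282, and not every library correlated best with its own number, so the numbers were not taken as pairs. With the median of neighbouring genes subtracted, the members' median was -0.18, EBP was at -0.080 and DHCR7 at 0.085. Under the other alternatives, signs turned only in members that had not passed and in 1 ratio. Rescaling to TPM put GGPS1 at 0.080 and MBTPS2 at 0.083, and quantile normalization put GGPS1 at 0.028, LBR at -0.016 and MBTPS2 at 0.030. With 1 library left out, MVK ranged from -0.026 to 0.083, GGPS1 from -0.075 to 0.037, LBR from -0.018 to 0.076, MBTPS2 from -0.30 to 0.19 and the log2 ratio difference of MBTPS1 to MBTPS2 from -0.58 to 0.003. The causes were not tested. Read depth is unknown, which limits most the genes at low FPKM.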

Other observations

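Neighbouring genes of several other named genes also had fold changes of mostly 1 sign. All 20 tested neighbours of VCP on chromosome 9 were higher, with a median log2 fold change of 0.42 beside 0.41 for VCP itself. ICMT on chromosome 1 had 17 of 20 neighbours higher (median 0.28), and UBXN1 on chromosome 11 had 2 of 20 higher (median -0.41). CYP27A1 on chromosome 2 rose where 0 of 20 neighbours had a fold change above 0 (median -0.33). SREBF1 on chromosome 17 rose by 0.96 beside a neighbour median of 0.06. STARD5 stood at -1.38 beside -0.35 for its neighbours on chromosome 15.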
